A study of Mus musculus with 27 samples.

Results

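The genes described here encode, in the nucleus, the subunits of oxidative phosphorylation, the respiratory chain and ATP synthase of the mitochondrial inner membrane. They were chosen by symbol: Ndufa, Ndufb, Ndufc, Ndufs and Ndufv genes, Sdha to Sdhd, Cyc1, and symbols that start with Uqcr, Cox4i, Cox5, Cox6, Cox7, Cox8 or Atp5. Assembly factors, genes of the mitochondrial genome and 4 pseudogenes were left out. The rule gave 87 genes, 85 of the 42373 symbols in each bulk table and 85 of the 32285 features in each single-cell matrix, with 83 in both. They comprise 35 genes of complex I, 4 of complex II, 9 of complex III, 19 of complex IV, 17 of complex V, and Atp5s, Atp5sl and Cox7a2l, which were kept apart from the complexes.

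Complex I takes electrons from NADH and complex II takes them from succinate; both pass them to ubiquinone, from which they flow through complex III and cytochrome c to complex IV, the oxidase that reduces oxygen. The protons moved on the way drive complex V, the ATP synthase. Brown adipocytes and cardiac and skeletal muscle are rich in these subunits, and some subunits of complex IV have separate genes for muscle and brown fat. In the mouse aorta, the surrounding perivascular fat is partly brown.

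All mice of the series were C57BL/6 and had received angiotensin II (Ang II), a pressor hormone, for 28 days, controls included. The genotypes are given as TKO and Cre and are not spelled out in the labels. The series title names KLF10, IL-9 and CD4+ T cells. Bulk RNA came from TKO (3 samples) and Cre (3) aorta left non-stripped, from TKO (2) and Cre (4) stripped aorta, from isolated aortic fibroblasts of TKO (3) and Cre (3), and from non-stripped aorta of TKO mice given the anti-IL-9 antibody IL9mAb (2) or IgG (3). Single cells were read from digested non-stripped aorta of TKO (2) and Cre (2). The labels used here do not say what stripping removed, which promoter drives Cre, the age or the sex of the mice, or whether samples of a group are separate animals, so p-values measure the spread between these samples. The source names call the second set stripped, whereas the titles of the same samples read nonstripped; the source names were followed.

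Bulk libraries held 17179257 to 38633457 counts. Klf10, the gene of the title, had 0 to 41.2 CPM (counts scaled to a common library size) in TKO and 40.6 to 65.7 CPM in Cre non-stripped aorta. TKO replicate 3 alone had 0 counts, and results of that set are therefore also given without it. Klf10 had 20.6 to 37.2 CPM in TKO and 29.7 to 62.8 CPM in Cre stripped aorta, and 58.2 to 71.2 CPM in TKO and 60.9 to 73.2 CPM in Cre fibroblasts. By their markers, the white fat list summed to 34511 to 40816 CPM and the smooth muscle list to 506 to 1305 CPM in the 6 non-stripped genotype libraries, against 3684 to 12640 and 4193 to 8109 CPM in stripped aorta. The fibroblast list summed to 3677 to 8165 CPM in isolated fibroblasts. Of the genes described here, 83 of 85 passed the filter on low counts in every bulk comparison. The others were Cox7b2 and Cox8c, subunit isoforms known from testis, with 0 counts in the non-stripped genotype libraries and in stripped aorta. Elsewhere Cox7b2 had 1 count in IgG replicate 1, and Cox8c had 1 count in TKO fibroblast replicate 2.

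Promoters are shown for a pair of tissue-limited complex IV genes, Cox8b and Cox7a1, whose share of their isoform pair differed between the aortic preparations below, and for comparison for Cox8a, the widely expressed partner of Cox8b, and Sdhd, a membrane anchor of complex II with several of the searched motifs. The sequences are from RefSeq on GRCm38.p6 and run from 250 bases before to 50 bases after the start of the gene, 5′ to 3′ on the gene's strand. Capitals mark the motifs found. Cox8b lies at chr7:140900397-140900696 (minus strand), Cox7a1 at chr7:30183921-30184220 (plus), Cox8a at chr19:7217567-7217866 (minus) and Sdhd at chr9:50603800-50604099 (minus).
Cox8b: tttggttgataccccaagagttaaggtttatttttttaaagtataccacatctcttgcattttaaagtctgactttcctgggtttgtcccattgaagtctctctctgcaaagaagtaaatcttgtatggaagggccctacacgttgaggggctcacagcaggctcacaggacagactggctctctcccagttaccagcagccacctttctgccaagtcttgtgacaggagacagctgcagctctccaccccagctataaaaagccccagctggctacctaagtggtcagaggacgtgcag
Cox7a1: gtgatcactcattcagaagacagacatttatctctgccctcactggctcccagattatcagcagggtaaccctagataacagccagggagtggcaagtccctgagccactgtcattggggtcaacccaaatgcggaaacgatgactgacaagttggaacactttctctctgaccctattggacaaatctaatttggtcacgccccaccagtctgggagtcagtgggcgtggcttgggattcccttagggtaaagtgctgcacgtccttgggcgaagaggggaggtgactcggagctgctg
Cox8a: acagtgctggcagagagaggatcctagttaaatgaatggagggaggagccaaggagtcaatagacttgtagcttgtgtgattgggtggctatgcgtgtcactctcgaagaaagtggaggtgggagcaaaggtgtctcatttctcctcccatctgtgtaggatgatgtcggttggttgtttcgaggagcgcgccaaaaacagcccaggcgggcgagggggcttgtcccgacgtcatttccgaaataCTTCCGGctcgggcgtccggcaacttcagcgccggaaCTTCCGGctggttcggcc
Sdhd: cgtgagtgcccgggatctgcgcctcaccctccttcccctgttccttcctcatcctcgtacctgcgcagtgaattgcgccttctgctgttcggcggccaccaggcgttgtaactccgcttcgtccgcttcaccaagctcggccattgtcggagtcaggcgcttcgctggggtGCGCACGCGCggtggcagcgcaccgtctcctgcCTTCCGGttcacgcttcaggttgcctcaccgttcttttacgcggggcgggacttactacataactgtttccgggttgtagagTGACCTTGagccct

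5 motifs were searched on both strands, for factors known to bind promoters of respiratory genes: GCGC followed by any base and TGCGC (NRF1), CCGGAAG (ETS factors including GABPA), AAGATGGCG (YY1), CAAGGTCA (ERR) and TGACGTCA (CREB). The Cox8a promoter held the ETS letters at -5 and 33, counted from the start of the gene. The Sdhd promoter held the NRF1 letters at -79, the ETS letters at -46 and the ERR letters at 37. The Cox8b and Cox7a1 windows held none of the 5. A promoter was matched for 62 of the 87 genes. At least 1 motif was in 56.5% of these 62, against 16.7% of 22862 promoters of the same length. NRF1 letters were in 24.2% of the 62 and in 4.75% of all promoters, ETS letters in 25.8% and 9.12%, YY1 letters in 9.68% and 1.55%, ERR letters in 6.45% and 1.46%, and CREB letters in 6.45% and 1.85%. A match is a description of letters, not of binding.

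The genes took a much larger share of the counts in non-stripped aorta than in stripped aorta or fibroblasts. They made up 4.61%, 4.57% and 3.97% of counts in TKO non-stripped aorta, against 5.32%, 4.71% and 4.78% in Cre. In stripped aorta they made up 1.10% and 1.48% in TKO, against 0.768%, 0.946%, 0.977% and 1.14% in Cre. In fibroblasts they made up 0.811%, 0.772% and 0.762% in TKO, against 0.813%, 0.855% and 0.784% in Cre. As shares of raw counts, the TKO values of non-stripped aorta lay below all Cre values, whereas the groups overlapped in stripped aorta and in fibroblasts. As summed CPM, non-stripped aorta had 44712, 45863 and 40016 in TKO, against 55702, 48390 and 45503 in Cre, with overlap. Stripped aorta had 11035 and 14755 CPM in TKO, against 7973, 9357, 9863 and 11030 CPM in Cre, just without overlap. Whether the genotypes overlapped in whole aorta thus depended on the scaling. In TKO non-stripped aorta under treatment, the share was 2.41% and 3.36% with anti-IL-9, against 3.84%, 3.56% and 4.47% with IgG, with no overlap. Transcripts of the mitochondrial genome took 16.9% to 19.7% of counts in TKO and 19.98% to 20.96% in Cre non-stripped aorta, 4.78% to 9.11% in TKO and 3.16% to 6.85% in Cre stripped aorta, and under 1% in every fibroblast library.

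**Figure D1:**
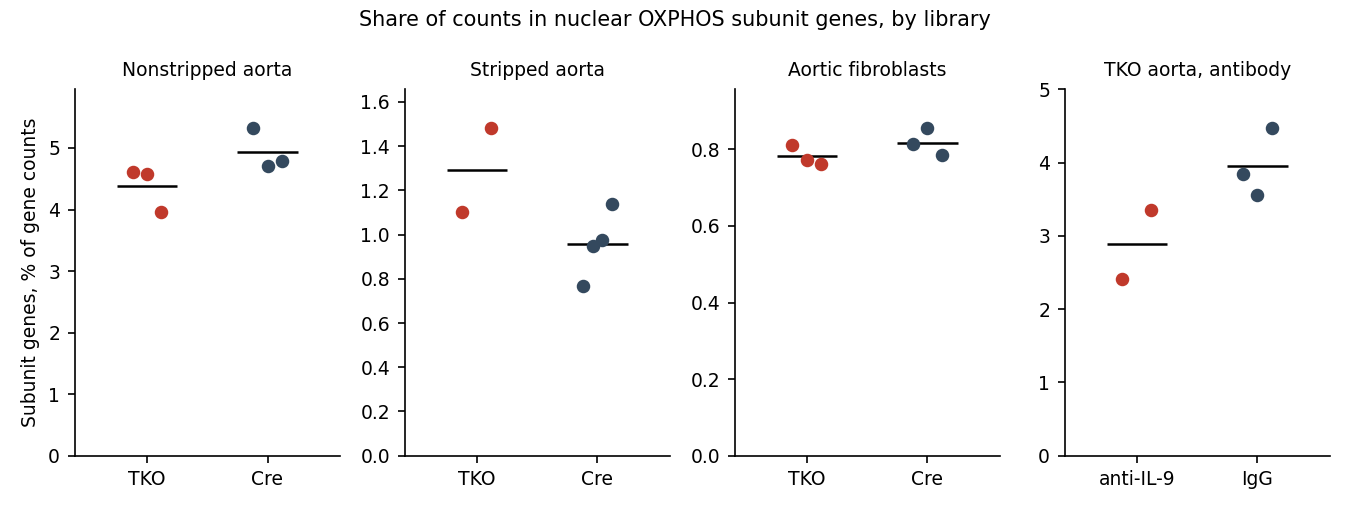
Percent of all counts that fell on the nuclear subunit genes in each of the 23 bulk libraries (y axis), by group (x axis), in 4 panels with their own y ranges; points are libraries and lines group means. Non-stripped aorta sits between 3.97% and 5.32%, the anti-IL-9 and IgG libraries between 2.41% and 4.47%, and stripped aorta and fibroblasts below 1.5%.

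Per kilobase of transcript, the most abundant subunit of non-stripped aorta was Atp5b, the catalytic beta subunit of ATP synthase, with 2873 ± 146 CPM per kb in TKO and 3163 ± 365 in Cre (SD, n = 3 each). Cox8b followed with 2057 ± 383 CPM per kb in TKO and 2644 ± 449 in Cre. Cox4i1, a structural subunit of complex IV, had 1913 ± 243 CPM per kb in TKO and 2379 ± 325 in Cre, and Cox6a1, its neighbour in the same complex, had 1875 ± 344 in TKO and 2474 ± 447 in Cre. These 3 complex IV subunits lay within 1 SD of each other in either genotype. Among the low ones were Ndufa4l2 with 8.20 CPM per kb in TKO and 10.6 in Cre, Cox6b2 with 7.44 in TKO and 10.1 in Cre, Atp5s with 6.23 in TKO and 6.49 in Cre, and Cox4i2 with 3.94 in TKO and 4.99 in Cre. Cox6a2 had 146 CPM per kb in TKO and 18.3 in Cre. In fibroblasts Atp5b again led with 615 ± 21.9 CPM per kb in TKO and 628 ± 33.0 in Cre, ahead of Cox4i1 with 396 ± 16.9 in TKO and 421 ± 38.3 in Cre. The tables were scaled separately, so levels are compared within a table.

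In non-stripped aorta, most subunits were slightly lower in TKO, and no difference passed the adjusted threshold of 0.05 (edgeR's quasi-likelihood test with Benjamini-Hochberg adjustment over 15160 genes). The fold change was below 0 for 79 and above 0 for 4 of the 83 tested genes. Their median log2 fold change (TKO over Cre) was -0.23, against -0.02 over all genes. Across all genes, 0.0594% passed the adjusted threshold as higher and 0.0594% as lower. Without TKO replicate 3 the median was -0.16 with 79 below 0, and without Cre replicate 1 it was -0.13. In bulk tissue, fewer cells of a type and less RNA per cell cannot be told apart.

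The groups did not overlap for 29 genes that were lower in TKO and 3 that were higher. Over all genes those shares were 10.6% lower and 14.9% higher, so the lower subunits exceeded and the higher ones fell short of the background. At an unadjusted p under 0.05, 9 subunits were lower and 2 higher, beside 5.85% and 12.1% of all genes. Without TKO replicate 3, 0 subunits were lower and 2 higher at that level. DESeq2 called 0 lower and 2 higher, beside 0.828% and 4.53% of all genes.

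By complex, all 35 genes of complex I were below 0, with a median of -0.24. The 4 genes of complex II had a median of -0.15 and the 9 of complex III one of -0.23, again all below 0. For complex IV, 16 of 17 were below 0 with a median of -0.26, and for complex V 12 of 15 with a median of -0.15. The difference was thus spread over the complexes rather than carried by a few genes.

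Cox6c, a small subunit of complex IV, had 626.7, 676.8 and 508.9 CPM in TKO, against 859.5, 743.6 and 737.6 CPM in Cre. All TKO values lay below all Cre values (log2 fold change -0.37 ± 0.14 SE, adjusted p = 0.211 by edgeR). Ndufb7, an accessory subunit of complex I, had 169.0, 168.6 and 147.9 CPM in TKO, against 211.5, 192.4 and 181.9 CPM in Cre, again without overlap (-0.27). Cyc1, the cytochrome c1 of complex III, had 818.5, 770.3 and 673.5 CPM in TKO, against 1005, 885.1 and 841.4 CPM in Cre (-0.27). Cox4i1 had 1560, 1582 and 1250 CPM in TKO, against 2098, 1746 and 1617 CPM in Cre (-0.31). In each of these genes TKO replicate 3 was lowest and Cre replicate 1 highest. Sdhd had 543.5, 609.7 and 473.3 CPM in TKO, against 699.2, 634.8 and 603 CPM in Cre, and TKO replicate 2 lay inside the Cre range (-0.25).

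Other core subunits differed less. Ndufs1, the largest iron-sulfur subunit of complex I, had 636.9, 641.1 and 619.4 CPM in TKO, against 675.5, 646.5 and 614.8 CPM in Cre, with overlap (-0.03). Atp5b had 5617, 5711 and 5185 CPM in TKO, against 6855, 5789 and 5537 CPM in Cre, with overlap as well (-0.14). Sdha, the flavoprotein of complex II, had a log2 fold change of -0.10. Of the muscle and brown-fat isoforms, Cox8b and Cox7a1 overlapped too. Cox8b had 826.5, 813.9 and 581.4 CPM in TKO, against 1120, 937.3 and 798.1 CPM in Cre (-0.36 ± 0.18 SE, adjusted p = 0.324 by edgeR). Cox7a1 had 435.2, 458.1 and 395.9 CPM in TKO, against 619.8, 494 and 433.2 CPM in Cre (-0.26 ± 0.15). Cox7a2l, kept apart from the complexes, had a log2 fold change of -0.23.

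The 2 largest differences ran the other way. Cox6a2, the isoform of COX6A known from heart and skeletal muscle, had 39.98, 52.6 and 205.7 CPM in TKO, against 5.35, 19.7 and 12.4 CPM in Cre. Its log2 fold change was 3.01 ± 0.70 (SE), with adjusted p = 0.0868 by edgeR and 0.0161 by DESeq2, and it was 1.91 without TKO replicate 3. Its exons overlap Itgad, so reads of the pair may be split between them. Its partner Cox6a1 had a log2 fold change of -0.40. Atp5g1, 1 of 3 genes for the same membrane-ring c subunit of ATP synthase, had 42.6, 45.7 and 137.1 CPM in TKO, against 17.6, 24.6 and 22.9 CPM in Cre. Its log2 fold change was 1.79 ± 0.43, with adjusted p = 0.0901 by edgeR and 0.0359 by DESeq2, and it was 1.03 with adjusted p = 0.0246 when TKO replicate 3 was left out. TKO replicate 3 thus carried much of the size of both differences, and both groups stayed apart without it.

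The other c-subunit genes differed less than Atp5g1, and in opposite directions. Atp5g2 had 113.2, 117.5 and 98.6 CPM in TKO, against 129.9, 124.2 and 113.3 CPM in Cre (-0.16). Atp5g3 had 283.4, 281.6 and 345.0 CPM in TKO, against 258.8, 260.9 and 243.7 CPM in Cre (0.25), without overlap and with TKO replicate 3 highest, as in Atp5g1. The 3 genes are paralogs, and the treatment of reads they share is not stated in the labels.

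Marker lists moved beside these values. The skeletal muscle list was above 0 for 16 of 16 genes, with a median of 3.19, and its summed level was 6590, 5588 and 22335 CPM in TKO, against 592, 1979 and 1054 CPM in Cre. The cardiac list summed to 208, 193 and 982 CPM in TKO, against 21.3, 85.2 and 66.9 CPM in Cre. Ckm, the muscle creatine kinase, averaged 901 CPM in TKO and 88.8 CPM in Cre. Their part in the values of Cox6a2 and Atp5g1 was not tested. The brown fat list summed to 9005, 10809 and 9369 CPM in TKO, against 12860, 10794 and 8931 CPM in Cre, with overlap. The white fat list summed to 40816, 40336 and 37604 CPM in TKO, against 37904, 35626 and 34511 CPM in Cre, with overlap, and the smooth muscle list had a median of -0.65 but summed to 506, 653 and 1305 CPM in TKO, against 740, 563 and 618 CPM in Cre. The endothelial list was below 0 for 11 of 12 genes (median -0.30) and summed to 1083, 1073 and 983 CPM in TKO, against 1179, 1327 and 1327 CPM in Cre. The mesothelial list was below 0 for 8 of 9 genes (-0.42) and summed to 55.9, 55.2 and 57.8 CPM in TKO, against 78.8, 60.8 and 82.0 CPM in Cre. The genotypes overlapped in neither sum. Their part in the lower subunits was not tested.

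Several other mitochondrial lists lay below 0 as well. A list of mitochondrial carrier and import genes summed to 5792, 6291 and 7044 CPM in TKO, against 6508, 6157 and 5569 CPM in Cre, with overlap. The sums of the mitochondrial genome, mitochondrial ribosomal proteins, assembly factors and the subunits themselves overlapped too. Those of the citric acid cycle did not, with 18365, 17885 and 16108 CPM in TKO, against 21260, 19902 and 19107 CPM in Cre. All 13 tested genes of the citric acid cycle were below 0 (median -0.23), as were 12 of 13 transcripts of the mitochondrial genome (-0.18) and 74 of 77 mitochondrial ribosomal proteins (-0.19). Assembly factors had a median of -0.15 and cytosolic ribosomal proteins -0.10. Among regulators, Ppargc1a, a coactivator of mitochondrial genes, averaged 52.3 CPM in TKO and 45.8 CPM in Cre (0.19), and Nrf1 had a log2 fold change of -0.22, Gabpa 0.04, Esrra -0.01 and Tfam 0.00. None of these regulators passed the threshold.

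In stripped aorta, the subunits lay the other way: most were higher in TKO, with no call at the adjusted threshold over 16686 genes. The fold change was above 0 for 79 and below 0 for 4 of 83 genes, with a median of 0.42 against 0.00 over all genes. Over all genes, 0.0120% were called higher and 0.0120% lower. At an unadjusted p under 0.05, 46 subunits were higher and 1 lower, beside 7.38% and 6.37% of all genes, and the groups did not overlap for 36 higher and 1 lower, beside 12% and 11.6%. DESeq2 called 4 higher (Ndufv1, Uqcrfs1, Cox4i1 and Ndufa6) and 0 lower, beside 2.03% and 1.72% of all genes. Without TKO replicate 2 the median was 0.20 and 3 subunits were higher at the unadjusted level, and without TKO replicate 1 the median was 0.58 and the number 64. Each of these fits had 1 TKO library, assumed to vary like the Cre libraries. The size of the difference thus depended on which of the 2 TKO libraries was kept.

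Complex III had the highest median, 0.63, with all 9 genes above 0. Complex IV followed with 0.53 (15 of 17 above 0), complex II with 0.43 (4 of 4), complex I with 0.39 (34 of 35) and complex V with 0.31 (14 of 15).

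Ndufv1, the NADH-binding flavoprotein of complex I, had 135.7 and 181.0 CPM in TKO, against 91.9, 97.7, 98.95 and 114.8 CPM in Cre. Its log2 fold change was 0.65 ± 0.14 (SE), with adjusted p = 0.179 by edgeR and 0.00688 by DESeq2. Uqcrfs1, the Rieske iron-sulfur protein of complex III, had 113.7 and 155.8 CPM in TKO, against 56.8, 79.5, 82.5 and 97.2 CPM in Cre (0.77 ± 0.21, adjusted p = 0.222 by edgeR and 0.0324 by DESeq2). Both TKO libraries were above every Cre library in either gene, and TKO replicate 2 was the higher. Sdha had 299.97 and 347.7 CPM in TKO, against 201.3, 251.9, 245.2 and 267.1 CPM in Cre (0.42). Cyc1 had 125.0 and 179.2 CPM in TKO, against 69.8, 90.8, 97.1 and 118.8 CPM in Cre (0.69). Atp5d, the delta subunit of ATP synthase, had 184.8 and 251.9 CPM in TKO, against 144.5, 130.6, 149.5 and 181.7 CPM in Cre (0.53). The groups did not overlap in these 3 genes, nor in Uqcrc1, a core protein of complex III, with 161.3 and 247.5 CPM in TKO, against 111.3, 126.2, 135.6 and 151.6 CPM in Cre (0.64).

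The largest positive differences were in the muscle and brown-fat isoforms of complex IV. Cox8b had 110.4 and 232.9 CPM in TKO, against 23.7, 56.5, 55.5 and 78.0 CPM in Cre (1.68 ± 0.44, adjusted p = 0.213 by edgeR). Leaving out 1 library at a time gave 1.05 to 2.12. Cox7a1 had 31.5 and 96.7 CPM in TKO, against 6.32, 21.0, 24.5 and 30.7 CPM in Cre (1.64 ± 0.59, adjusted p = 0.303), and 0.61 to 2.23 with 1 library left out. TKO replicate 1 lay just above the highest Cre library in Cox7a1, and TKO replicate 2 far above it. Cox8a, the partner of Cox8b, had 181.8 and 245.5 CPM in TKO, against 129.5, 147.9, 157.4 and 184.5 CPM in Cre, with overlap (0.46).

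A few genes went against the rest. Atp5g1, higher in TKO non-stripped aorta, had 46.9 and 53.0 CPM in TKO, against 55.2, 57.1, 72.0 and 68.9 CPM in Cre stripped aorta (-0.34 ± 0.14, adjusted p = 0.34). Cox6a2 had 7.79 and 2.44 CPM in TKO, against 2.08, 3.69, 28.9 and 22.3 CPM in Cre (-1.48 ± 1.09). Its 2 high values were in the Cre libraries 3 and 4, which also held most of the cardiac list, summing to 286 and 82.0 CPM in TKO, against 140, 140, 4794 and 797 CPM in Cre. Ndufa4l2, a paralog of Ndufa4 known to be induced by hypoxia, had 57.0 and 35.1 CPM in TKO, against 71.5, 47.1, 54.9 and 46.3 CPM in Cre, with overlap. Its log2 fold change was -0.26, and 0.06 without TKO replicate 2.

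Several marker lists moved with the subunits in stripped aorta. The white fat list was above 0 for 16 of 16 genes, with a median of 1.02, and summed to 12640 and 11448 CPM in TKO, against 3684, 5761, 5383 and 8169 CPM in Cre. The brown fat list was above 0 for 13 of 15 genes, with a median of 1.43, and summed to 936 and 1272 CPM in TKO, against 584, 471, 632 and 584 CPM in Cre. Both TKO libraries were above every Cre library in either list. Other lists set TKO replicate 2 apart: T cell markers (9 of 9 above 0, median 1.87) summed to 14.4 and 126.7 CPM in TKO, against 7.81 to 15.5 CPM in Cre, and B cell markers (7 of 8, median 1.32) to 65.0 and 270.4 CPM in TKO, against 38.8 to 62.4 CPM in Cre. Endothelial markers (11 of 12, median 0.71) summed to 646 and 1321 CPM in TKO, against 380 to 745 CPM in Cre, and Schwann cell and neural markers (10 of 11, median 1.08) to 894 and 1241 CPM in TKO, against 745 to 903 CPM in Cre. That library also had the higher subunit values. The smooth muscle list was below 0 for 10 of 10 genes (median -0.58), summing to 4193 and 6364 CPM in TKO, against 6903, 8109, 7568 and 8000 CPM in Cre, and the mesothelial list for 9 of 9 (-2.07). Adipoq, the adipocyte hormone adiponectin, averaged 335 CPM in TKO and 165 CPM in Cre (adjusted p = 0.222 by edgeR). The part of these cell types in the higher subunits was not tested.

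The citric acid cycle and the mitochondrial genome lay the same way, with 13 of 13 genes above 0 in each list and medians of 0.50 and 0.49. Mitochondrial ribosomal proteins (0.15), cytosolic ribosomal proteins (0.15) and assembly factors (0.11) were nearer to 0. Esrra, the nuclear receptor ERR alpha, averaged 37.6 ± 0.89 CPM in TKO (SD, n = 2) and 26.5 ± 0.60 CPM in Cre (SD, n = 4), with adjusted p = 0.112 by edgeR. Ppargc1a averaged 7.72 ± 1.08 CPM in TKO and 4.97 ± 0.42 CPM in Cre (adjusted p = 0.232).

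**Figure D2:**
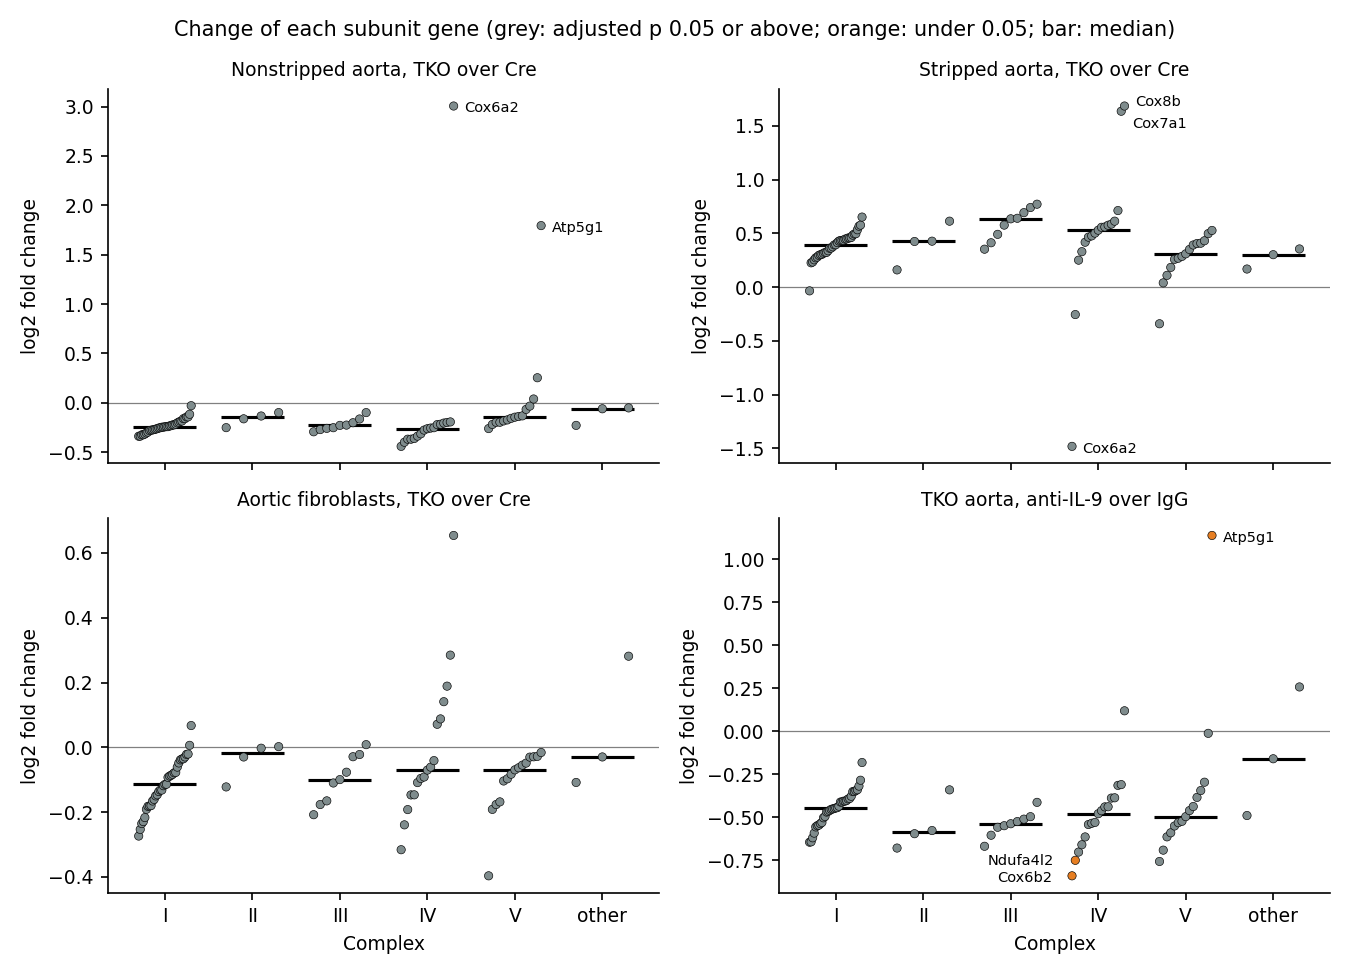
Log2 fold change of each tested subunit gene (points) by complex in the 4 bulk comparisons, tested group over its control, with the median of each complex as a bar and adjusted p under 0.05 in orange. Points lie mostly below 0 in non-stripped aorta (median -0.23) and with anti-IL-9 (-0.47), mostly above 0 in stripped aorta (0.42), and near 0 in fibroblasts (-0.09).

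The difference between the genotype effects of the 2 preparations was tested as an interaction, the TKO over Cre effect in non-stripped minus that in stripped aorta. Of the subunits, 80 were below 0 and 3 above 0, with a median of -0.64 against -0.01 over all 17499 genes. 0 passed the adjusted threshold, beside 0.00571% of all genes higher and 0% lower. At an unadjusted p under 0.05, 66 subunits were lower and 2 higher, beside 8.46% and 9.69% of all genes. DESeq2 called 29 lower and 1 higher, beside 2.38% and 3.03% of all genes. Without TKO replicate 3 of non-stripped aorta the median was -0.60 with 55 lower at the unadjusted level, and without TKO replicate 2 of stripped aorta it was -0.43 with 20.

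Among these, Ndufv1 had an interaction of -0.96 ± 0.21 (SE, adjusted p = 0.0883 by edgeR) and Cox8b one of -2.04 ± 0.52 (adjusted p = 0.108). Atp5g1 had 2.13 ± 0.53 (adjusted p = 0.103) and Cox6a2 4.48 ± 1.46 (adjusted p = 0.148), the opposite sign to most subunits. Medians ran from -0.86 for complex III and -0.83 for complex IV to -0.49 for complex V. The mitochondrial genome (13 of 13 below 0, median -0.61), the citric acid cycle (13 of 13, -0.73) and the white fat list (-1.17) had the same sign, and the skeletal muscle list the opposite one (4.01). The libraries of the 2 preparations come from separate tables, and anything that differed between the tables for 1 genotype alone cannot be told apart from this difference.

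In isolated aortic fibroblasts the subunits differed little. Their median log2 fold change was -0.09, against 0.01 over all 15672 genes, with 72 below 0 and 11 above 0. 0 passed the adjusted threshold by edgeR, beside 0.0319% of all genes higher and 0.0319% lower. At an unadjusted p under 0.05, 6 were lower and 0 higher, beside 6.56% and 5.55% of all genes, which is near the background. The groups did not overlap for 10 lower and 0 higher, beside 8.45% and 8.86%. DESeq2 called 1 lower, Atp5k, and 0 higher, beside 1.85% and 1.10% of all genes.

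Atp5k, the small e subunit of ATP synthase, had 27.2, 28.0 and 29.6 CPM in TKO, against 34.0, 40.9 and 36.6 CPM in Cre (-0.40 ± 0.09 SE, adjusted p = 0.226 by edgeR and 0.0248 by DESeq2). Cox6b1 had 81.6, 73.1 and 75.3 CPM in TKO, against 94.1, 110.4 and 81.7 CPM in Cre (-0.32). Cox8a had 91.0, 96.7 and 90.8 CPM in TKO, against 104.9, 116.7 and 107.0 CPM in Cre (-0.24). All 3 were without overlap between the groups. Atp5g1, at 126.7, 115.4 and 117.0 CPM in TKO and 128.3, 127.4 and 115.7 CPM in Cre, overlapped (-0.05). Fibroblasts nearly lacked the brown-fat isoforms: Cox8b had 3.13, 1.17 and 1.40 CPM in TKO, against 1.55, 2.15 and 1.49 CPM in Cre.

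Medians by complex ran from -0.11 (complex I, 33 of 35 below 0) to -0.02 (complex II). The macrophage list was below 0 for 9 of 9 genes with a median of -1.11, summing to 704, 499 and 586 CPM in TKO, against 958, 2331 and 810 CPM in Cre. Its part in the subunit values was not tested. The mitochondrial genome (-0.10), the citric acid cycle (-0.04) and both ribosomal lists (-0.09 each) were as near to 0 as the subunits.

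In TKO non-stripped aorta, subunits were mostly lower with anti-IL-9 than with IgG, within a comparison in which many genes differed. Over all 16461 genes, 21.0% were called higher and 11.0% lower by edgeR. Of the 83 subunits, 80 were below 0 and 3 above 0, with a median of -0.47 against -0.01 over all genes, and 1 was called higher and 2 lower. That share of lower calls is under the background. The groups did not overlap for 31 lower and 2 higher, beside 27.7% and 32.1% of all genes. At an unadjusted p under 0.05, 16 were lower and 1 higher, beside 18.2% and 25.6%, and DESeq2 called 16 lower and 1 higher, beside 14.4% and 20.4%. The lower count at the unadjusted level is near the background, and those by non-overlap and by DESeq2 are somewhat above it.

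The count of lower subunits depended on single libraries. Without anti-IL-9 replicate 2 it was 44 with a median of -0.84, and without anti-IL-9 replicate 1 it was 0 with a median of -0.19. In both fits 1 anti-IL-9 library stood alone and was assumed to vary like the IgG libraries. The count was 0 without IgG replicate 1 and 1 without IgG replicate 3.

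Atp5g1 rose, with 61.7 and 54.5 CPM with anti-IL-9, against 26.0, 25.6 and 27.8 CPM with IgG. Its log2 fold change was 1.14 ± 0.11 (SE, adjusted p = 0.000461 by edgeR), and 1.03 to 1.22 with 1 library left out. The paralogs did not share this: Atp5g3 had 267.3 and 312.1 CPM with anti-IL-9, against 295.3, 257.4 and 323.6 CPM with IgG (-0.01), and Atp5g2 had a log2 fold change of -0.30. Ndufa4l2 fell, with 7.01 and 7.98 CPM with anti-IL-9, against 13.7, 14.1 and 9.91 CPM with IgG (-0.75 ± 0.21, adjusted p = 0.0319). Cox6b2, a COX6B isoform known from testis, fell, with 3.53 and 4.76 CPM with anti-IL-9, against 6.90, 6.40 and 8.90 CPM with IgG (-0.84 ± 0.25, adjusted p = 0.0427). Both genes that fell are weakly expressed here.

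The abundant core subunits were lower without passing the threshold. Atp5b had 2109 and 3297 CPM with anti-IL-9, against 4108, 4158 and 5430 CPM with IgG (-0.76, adjusted p = 0.0918). Atp5c1, the gamma subunit of ATP synthase, had 221.5 and 313.3 CPM with anti-IL-9, against 391.7, 355.2 and 459.9 CPM with IgG (-0.59, adjusted p = 0.0671). Sdhd had 227.8 and 357.7 CPM with anti-IL-9, against 419.0, 390.4 and 499.7 CPM with IgG (-0.58). In these 3 genes both anti-IL-9 libraries lay below every IgG library, and replicate 1 was the lower. Cox4i1 had 928.2 and 1597 CPM with anti-IL-9, against 1591, 1367 and 1992 CPM with IgG, with overlap (-0.39). Cox8b had 425.7 and 770.3 CPM with anti-IL-9, against 905.8, 797.3 and 1129 CPM with IgG, without overlap (-0.66). Cox7a1 had 178.1 and 339.5 CPM with anti-IL-9, against 396.9, 343.9 and 521.2 CPM with IgG, again without overlap (-0.70). Complex medians ran from -0.45 for complex I, with 35 of 35 below 0, to -0.59 for complex II, with 4 of 4.

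Fat markers were lower and other markers moved strongly in the same comparison. The white fat list was below 0 for 16 of 16 genes, 10 of them called lower, with a median of -0.89, and summed to 21764 and 27953 CPM with anti-IL-9, against 45365, 42682 and 43434 CPM with IgG. The brown fat list summed to 3779 and 7403 CPM with anti-IL-9, against 7583, 7817 and 9035 CPM with IgG, with a median of -0.60. All 9 mesothelial markers were called lower (median -4.62), 8 smooth muscle markers were called higher (median 1.08), and the skeletal muscle list summed to 399 and 326 CPM with anti-IL-9, against 124, 66.9 and 103 CPM with IgG. The endothelial list (12 of 12 below 0, 10 called) summed to 665 and 833 CPM with anti-IL-9, against 1612, 1346 and 1427 CPM with IgG. The fibroblast list (12 of 12 below 0, 11 called) summed to 2260 and 1599 CPM with anti-IL-9, against 6104, 12111 and 4498 CPM with IgG, and the macrophage list (9 of 9, all called) to 314 and 226 CPM with anti-IL-9, against 683, 1257 and 795 CPM with IgG. These 3 were without overlap. Schwann cell and neural markers went the other way (11 of 11 above 0, median 2.03). The part of these cell types in the subunit values was not tested. The citric acid cycle was below 0 for 13 of 13 genes (median -0.59), whereas the mitochondrial genome had a median of 0.01. Of the regulators, Gabpa fell (-0.50, adjusted p = 0.0284 by edgeR).

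Tissue-limited isoforms were set against their widely expressed partners as a share of the pair's counts per kilobase. In non-stripped aorta Cox8b gave 61.8%, 61.3% and 61.3% of COX8 in TKO, against 64.4%, 63.1% and 61.7% in Cre. In stripped aorta it gave 48.1% and 59.2% in TKO, against 21.8%, 36.9%, 35.0% and 39.3% in Cre. With anti-IL-9 it gave 62.1% and 65.4%, against 67.9%, 66.4% and 68.3% with IgG, and in fibroblasts 3.04% ± 1.71 in TKO and 2.34% ± 0.347 in Cre (SD, n = 3 each). The genotypes overlapped in non-stripped aorta and stood apart in stripped aorta, with both TKO libraries higher. Both anti-IL-9 libraries lay below the 3 IgG libraries.

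Cox7a1 showed the same order of tissues, with 70.1% ± 1.36 of the COX7A pair in TKO and 70.6% ± 1.21 in Cre non-stripped aorta (SD, n = 3 each). In stripped aorta it gave 30.5% and 48.1% in TKO, against 11.5%, 25.4%, 27.2% and 28.5% in Cre. With anti-IL-9 it gave 62.5% and 68.4%, against 68.6%, 67.9% and 69.3% with IgG, with overlap, unlike Cox8b. Cox6a2 gave 2.64%, 3.79% and 16.8% of COX6A in TKO, against 0.26%, 1.24% and 0.85% in Cre non-stripped aorta, so that even here Cox6a1 made up most of the pair. Ndufa4l2 gave 16.4% and 7.97% in TKO, against 29.3%, 17.4%, 18.8% and 14.3% in Cre stripped aorta, with overlap, and under 2% in both non-stripped sets.

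**Figure D3:**
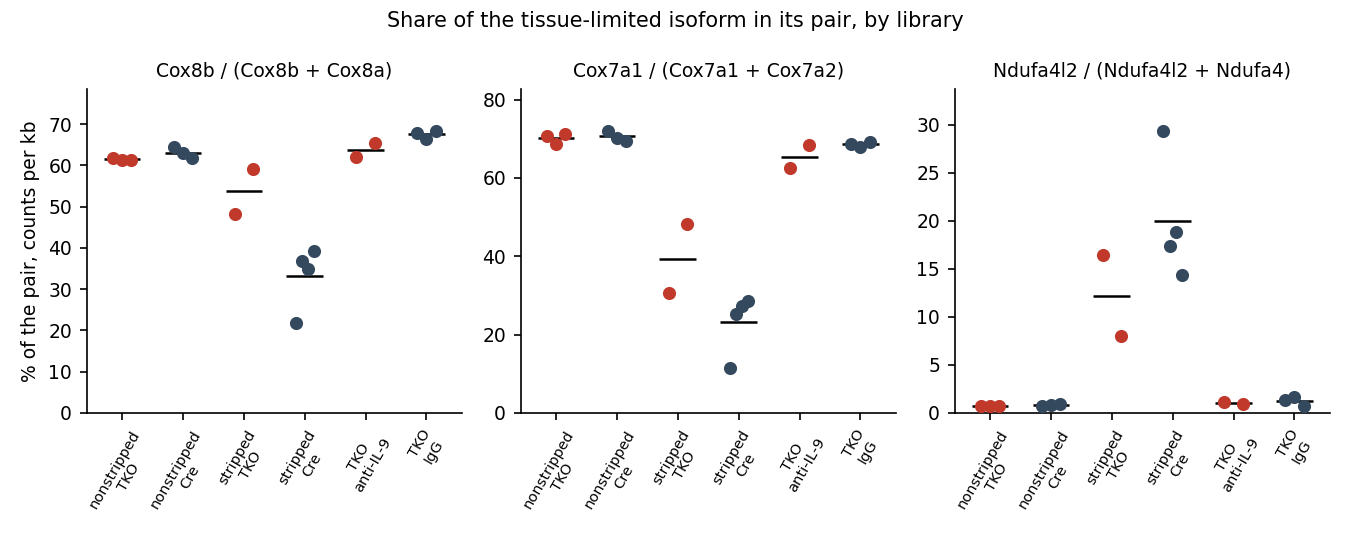
Share of a tissue-limited isoform in the summed counts per kilobase of itself and its widely expressed partner (y axis, percent) by group of whole aorta, with a panel each for Cox8b, Cox7a1 and Ndufa4l2; points are libraries and lines group means. Cox8b stands at 61.3% to 68.3% in non-stripped and 21.8% to 59.2% in stripped aorta.

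Single-cell libraries gave 43812 cells after filtering, of which 28124 lay in clusters that could be named by markers. Unnamed cells made up 40.4% and 45.2% of the TKO libraries and 19.0% and 51.6% of the Cre libraries. Median UMIs per kept cell were 1593 and 1409 in TKO and 2768 and 1683 in Cre. Between 12 and 68 cell barcodes were shared by any pair of libraries, at most 0.552% of the smaller one. Class names were rebuilt here and are written as X-like. The subunits, mitochondrial and ribosomal genes were left out of the clustering.

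Of all classes, adipocyte-like cells had by far the largest share of their own UMIs on subunits. Subunits made up 2.48% and 4.18% of their UMIs in TKO, against 3.59% and 4.99% in Cre. Across the 4 libraries this was 3.81% ± 1.06 (SD), ahead of pericyte-like cells with 1.56% ± 0.19. Every other class lay between 1.45% in mesothelial-like and 0.950% in plasma-like cells, and from pericyte-like cells down neighbours in that order differed by less than the larger of their SDs. The adipocyte-like class was led by Cfd, Car3, Adipoq, Cidec and Plin1 and was small, with 34 and 34 cells in TKO and 23 and 24 in Cre. Its size depended on the limit of 15% mitochondrial UMIs, unevenly between libraries and hardly in TKO library 1. With cells over the limit classed by their nearest kept cells, an alternative added after the data were seen, it held 37 and 320 cells in TKO and 91 and 1118 in Cre, with a median of 8.39% and 35.3% mitochondrial UMIs in TKO and 31.3% and 37.5% in Cre. The subunit share of these larger sets was 2.44% and 7.90% in TKO, against 6.66% and 7.75% in Cre. The levels below thus describe the few adipocyte-like cells under the limit, and the class led with and without it.

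In all 14 classes, library 2 of a genotype had a larger share than library 1, in both genotypes. The median mitochondrial percent per cell before filtering was 6.47 and 9.24 in TKO and 8.03 and 15.7 in Cre, again higher in library 2. Its part in the shares was not tested. The TKO mean was under the Cre mean in 13 of 14 classes, but both TKO libraries were under both Cre libraries in 1 class and over them in 0.

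**Figure D4:**
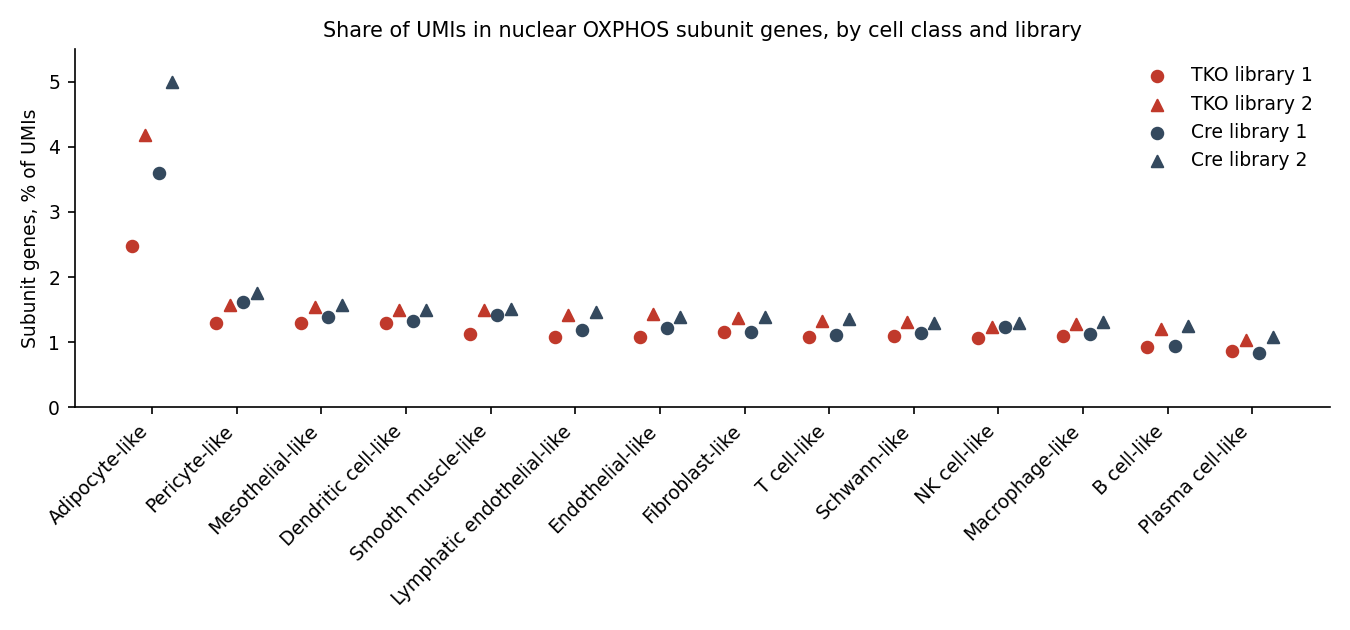
Percent of UMIs on subunit genes (y axis) in each cell class (x axis), 1 point a library, with TKO and Cre in separate colours and library 2 as triangles. Adipocyte-like cells lie at 2.48% to 4.99%, above all other classes.

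Of the 83 subunits with a UMI, 76 had their highest mean level in adipocyte-like cells, and 74 were over 2 times the median of the other classes there. The median ratio was 3.03. Cox8b stood out with a mean of 1072 CPM in adipocyte-like cells (382 and 1277 CPM in TKO, 739 and 1888 CPM in Cre), 87.1 times the median of the other classes. Cox7a1 had 229 CPM there (20.7 and 225 CPM in TKO, 83.6 and 587 CPM in Cre), 30.4 times that median. In both isoforms library 2 was the higher in either genotype. Ucp1, the uncoupling protein of brown fat, followed the same order in these cells, with 20.7 and 576 CPM in TKO and 122 and 1190 CPM in Cre, whereas Adipoq had 1394 and 2054 CPM in TKO and 1549 and 1396 CPM in Cre. Of the core subunits, Cyc1 was 6.74 times, Sdha 5.40 times, Atp5b 4.68 times and Ndufv1 4.23 times the median of the other classes.

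A low level of Cox8b in other classes moved with library too. In endothelial-like cells it had 7.95 and 62.0 CPM in TKO and 9.97 and 68.7 CPM in Cre, and Ucp1 had 5.30 and 63.3 CPM in TKO and 9.37 and 98.3 CPM in Cre. Whether those classes express the genes themselves was not tested.

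Atp5g1 was not an adipocyte-like gene. It had 155 CPM there, 1.04 times the median of the other classes, and was highest in mesothelial-like cells with 213 CPM. Cox4i2, the COX4 isoform known from lung and oxygen-sensing cells, was highest in pericyte-like cells, with 21.3 and 98.9 CPM in TKO and 75.4 and 66.7 CPM in Cre. Ndufa4l2 was highest there as well, with 55.9 and 148 CPM in TKO and 196 and 126 CPM in Cre, and both were at 0 in adipocyte-like cells. Cox6b2 was highest in mesothelial-like cells, with 67.3 and 68.8 CPM in TKO and 55.8 and 79.9 CPM in Cre, against a mean of 17.2 CPM in fibroblast-like cells. Cox6a2 had 114 UMIs in all and a mean over the libraries of at most 4.72 CPM in any class. Its value in Cre library 1 of plasma-like cells was 11.3 CPM, from 12 UMIs. Ndufa11, an accessory subunit of complex I, was highest in smooth muscle-like cells with 273 CPM, and Cox7a2l in T cell-like cells with 248 CPM. These 7 genes complete the 83, since Cox7b2 and Cox8c had no UMI.

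**Figure D5:**
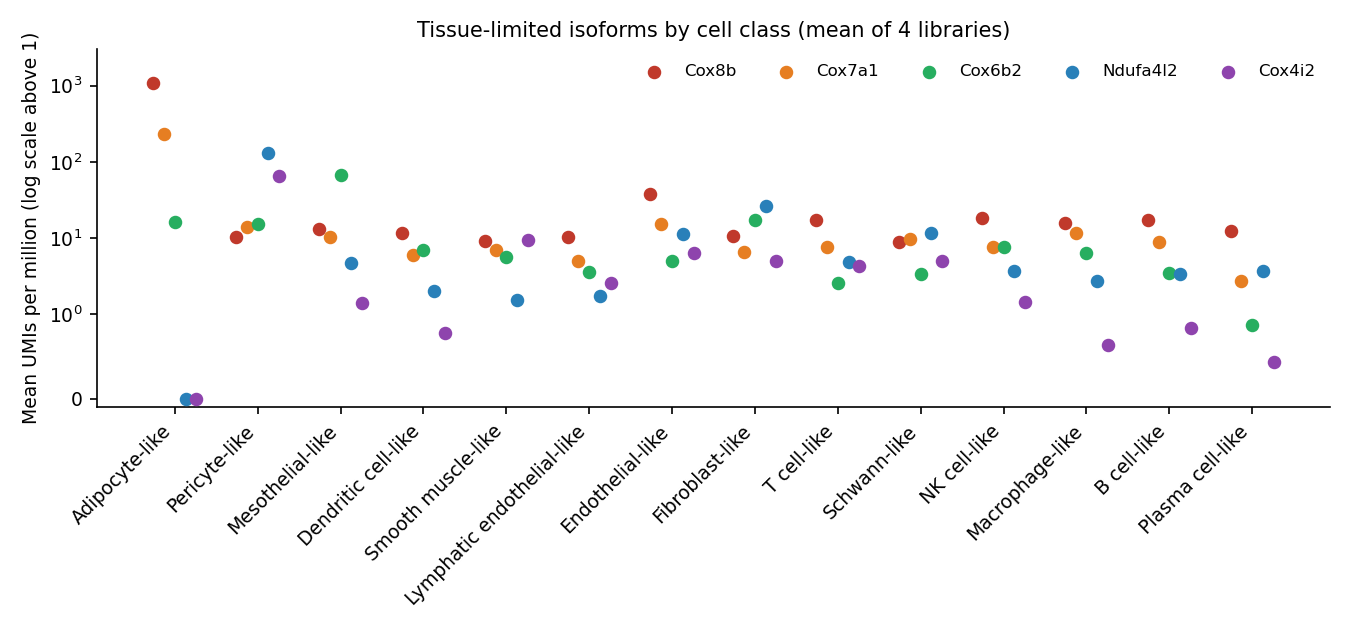
Mean level of 5 tissue-limited isoforms over the 4 libraries (y axis, CPM, log scale above 1) by cell class (x axis). Cox8b and Cox7a1 are highest in adipocyte-like cells, at means of 1072 and 229 CPM, and Ndufa4l2 and Cox4i2 in pericyte-like cells, at 131 and 65.6 CPM.

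Within classes, summed counts of TKO and Cre libraries were compared by edgeR. Of 1072 pairs of subunit and class, 781 were below 0 and 291 above 0, and 0 passed the adjusted threshold, beside 0.186% higher and 0.0294% lower of all 91774 gene and class pairs. At an unadjusted p under 0.05, 2 were higher and 8 lower, beside 3.05% and 1.46%, so both counts are under the background. DESeq2 called 0, beside 0.168% and 0.0935% of pairs. The median was below 0 in all 14 classes, and turned positive for dendritic-like (0.06 and 0.13), endothelial-like (0.14), macrophage-like (0.10) and T cell-like (0.13) cells when 1 library was left out.

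Medians were -0.37 in adipocyte-like cells, -0.30 in pericyte-like cells and -0.21 in smooth muscle-like cells. In the others they were between -0.15 and 0.00. Atp5d in pericyte-like cells had 90.5 and 91.9 CPM in TKO, against 166 and 170 CPM in Cre (-0.93). Ndufs6, a complex I subunit, had 61.9 and 72.7 CPM in TKO, against 109 and 101 CPM in Cre lymphatic endothelial-like cells (-0.73). Ndufb6 went the other way in B cell-like cells, with 53.1 and 48.6 CPM in TKO, against 27.4 and 31.7 CPM in Cre (0.73). The genotypes did not overlap in these 3, none of which passed the adjusted threshold. Most B cell-like cells of 1 cluster and most macrophage-like cells of another came from Cre library 1, and fibroblast-like clusters were also uneven between libraries.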

How the data were processed

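Bulk values are gene counts as deposited by the authors. Per the submitters' processing notes, Trimmomatic 0.36, STAR 2.5.2b, featureCounts and Subread 1.5.2 were used with GRCm38. Strand setting and annotation are not stated. Per the file headers, Cell Ranger 6.0.0 made the deposited UMI counts of single cells. The row with no gene name, at most 0.0025% of counts, and 1 column that no label maps were not used.

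Each bulk table was filtered (filterByExpr, minimum count 10), scaled by TMM and tested with edgeR 4.0.16 (R 4.3.3), with p-values adjusted over all genes tested. DESeq2 1.42.0, other scaling, no filter, a joint fit and leaving out each library were alternatives. Overlapping exons touch 29 of the genes, so their counts are less certain. Levels per kilobase use GENCODE transcripts on GRCm38.

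Cells with at least 500 genes, 1000 UMIs and at most 15% mitochondrial UMIs were kept and clustered with scanpy 1.11.5 (2000 variable genes, 40 components, Leiden 1.5). Scrublet marked 0 doublets and is taken not to have worked, so none were removed; clusters with markers of different classes stayed unnamed. Summed counts per class and library were tested with edgeR where every library had at least 20 cells. For an alternative without that limit, each cell over it took the class of most of its 15 nearest kept cells. Scripts were tested on simulated data.

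The genes and lists were chosen with earlier results of these data known. Named genes are those called, tissue-limited isoforms with partners, core subunits, and the smallest p per complex.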

Additional observations from a re-analysis of the deposited data

Results flagged for a closer look

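The summed level of the cardiac muscle list in stripped aorta set 1 library apart. Cre replicate 3 had 4794 CPM, and its gap to the nearest of the other Cre libraries, divided by the range of the group, was 0.859, past the critical value for 4 libraries. TKO libraries had 286 and 82.0 CPM, and the other Cre libraries 140, 140 and 797 CPM. The same library had the highest Cox6a2, with 28.9 CPM. Of 32 values examined this way 1 was past its limit, and chance gives about 1 in 20.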

How the results depend on the processing

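Of subunits called in non-stripped aorta, higher in TKO, there were 2 by DESeq2, 2 with no filter, 1 in the joint fit and 0 to 1 with 1 library left out. In stripped aorta, 4 were called higher by DESeq2 and 1 in the joint fit, and in fibroblasts 1 was lower by DESeq2 and 1 with no filter. With anti-IL-9, 16 were lower by DESeq2, 41 with no filter, 31 in the joint fit and 0 to 44 with 1 library left out, where the median ran from -0.84 to -0.19. For the interaction, DESeq2 called 1 higher and 29 lower and no filter 1 higher, and leaving out 1 library gave 0 to 1 lower and medians from -0.82 to -0.43. In single cells it gave 0 to 1 lower in a class: Cox8b in macrophage-like cells (-2.58), Ndufs8 in Schwann-like cells (-2.40) and Cox7a1 in adipocyte-like cells (-3.84). Where leaving out a library left 1 in a group, that library was assumed to vary like the other group, so these counts show dependence on a library, not its size in a replicated test. Without the mitochondrial limit, the adipocyte-like share of UMIs averaged 6.19%. The cause was not tested.

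Without dividing by length, Cox8b gave 51.1% in TKO and 52.8% in Cre non-stripped aorta, 43.2% in TKO and 24.7% in Cre stripped aorta, and 53.5% with anti-IL-9 and 57.6% with IgG. Cox7a1 gave 58.4% in TKO and 58.9% in Cre non-stripped aorta, and 53.1% with anti-IL-9 and 56.6% with IgG. Ndufa4l2 gave 27.5% in Cre stripped aorta.

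Signs turned with 1 library left out for Ndufs1 in non-stripped aorta (-0.065 to 0.00427), Ndufa4l2 (-0.65 without TKO replicate 1, 0.055 without TKO replicate 2) and Ndufa11 (-0.21 without TKO replicate 2, 0.02 without Cre replicate 4, 0.12 without TKO replicate 1) in stripped aorta, and Cox6a2 with anti-IL-9 (-0.16 without IgG replicate 1, -0.26 without IgG replicate 2, -0.01 without anti-IL-9 replicate 2, 1.06 without IgG replicate 3). Over every tested subunit, signs turned with 1 library left out for 5 in non-stripped aorta, 5 in stripped aorta, 21 in fibroblasts, 6 with anti-IL-9 and 1 in the interaction, with log2 fold changes of at most 0.31 in size.

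Single-cell titles share the numbers 1 and 2, which nothing says pair the libraries. Deviations of libraries with the same number correlated at 0.127 to 0.424 over all genes of a class, and a fit with a replicate block called 0 higher and 0 lower. Leaving out the cells with the highest 6% of doublet scores, an alternative chosen after seeing the data, called 0. With 2 libraries in several groups, small differences could not be called.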
